A study of Mus musculus with 6 samples.

Results

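The genes described here encode sensors of RNA and DNA and the proteins that carry their signal: the RNA sensors Ddx58 (RIG-I, now named Rigi), Ifih1 (MDA5), Dhx58 (LGP2) and Tlr3, the Z-nucleic acid sensor Zbp1, the DNA sensor Cgas (Mb21d1 in older annotation), the adaptors Sting1 (Tmem173) and Mavs, the kinase Tbk1 and the transcription factor Irf3. Their probes were taken as all non-control probes whose transcript accession belongs to one of these 10 genes. 17 of the 56593 usable probes met this rule, and all 17 passed the filter on dim probes. Each gene therefore had at least 1 probe among the 14151 genes tested.

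Expression was measured in a glioblastoma stem cell line of the mouse, grown as neurospheres in serum-free neural stem cell medium with EGF and bFGF, and derived from brain tumours induced with an SB transposon. 3 arrays held cells stably carrying a lentiviral hairpin against Ggct (knockdown), and 3 held cells carrying a lentiviral non-target hairpin (control). Ggct encodes gamma-glutamylcyclotransferase, an enzyme of glutathione turnover, and the design asks what changes when it is suppressed. Both groups shared the line, the medium and lentiviral delivery of a hairpin. The titles name 1 line and 1 knockdown hairpin, and cells without any hairpin were not analysed here. Each control array shared the date in its title with 1 knockdown array, which gave 3 pairs. Beyond those dates the labels do not say that the arrays came from separate cultures, so the tests weigh differences against the scatter of these arrays alone, and this scatter may be partly technical. In bulk RNA, fewer cells that express a gene and less RNA per cell cannot be told apart.

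RIG-I, MDA5 and LGP2 are cytosolic helicases that bind viral or other double-stranded RNA. RIG-I and MDA5 signal through the mitochondrial adaptor MAVS, while TLR3 reads double-stranded RNA in endosomes through another adaptor, TRIF. The enzyme cGAS binds DNA in the cytosol and makes a cyclic dinucleotide that activates STING. MAVS, TRIF and STING all lead to the kinase TBK1, which phosphorylates IRF3 so that it enters the nucleus and switches on interferon beta and early response genes. Activity of TBK1, IRF3 and the adaptors is set by such protein changes, which an mRNA array does not measure. Several of the sensors are themselves induced by interferon.

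The promoters of Ddx58 and Ifih1, sensors that act in parallel, and of Irf3, which acts downstream of them, are printed as examples with and without a match. Those of Ddx58 and Ifih1 hold a match to a core of the interferon-stimulated response element, and that of Irf3 does not. The windows of the sensors Tlr3 and Cgas, which are not printed, hold no match either. The windows cover 250 bases before and 50 bases after the annotated start, from RefSeq on mouse build GRCm38.p6, and capitals mark the match.
Ddx58, chr4:40239776-40240075, minus strand: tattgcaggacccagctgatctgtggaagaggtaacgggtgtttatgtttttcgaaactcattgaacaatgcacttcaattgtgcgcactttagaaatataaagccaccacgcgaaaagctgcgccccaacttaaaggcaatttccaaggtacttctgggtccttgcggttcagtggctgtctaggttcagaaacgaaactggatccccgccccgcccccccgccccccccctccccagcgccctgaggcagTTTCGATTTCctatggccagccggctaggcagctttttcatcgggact
Ifih1, chr2:62646206-62646505, minus strand: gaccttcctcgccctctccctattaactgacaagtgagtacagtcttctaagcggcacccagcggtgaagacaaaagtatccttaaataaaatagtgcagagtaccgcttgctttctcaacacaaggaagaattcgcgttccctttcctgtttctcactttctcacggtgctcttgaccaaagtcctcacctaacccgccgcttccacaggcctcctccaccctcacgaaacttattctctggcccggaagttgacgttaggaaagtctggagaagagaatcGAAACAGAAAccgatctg
Irf3, chr7:44997398-44997697, plus strand: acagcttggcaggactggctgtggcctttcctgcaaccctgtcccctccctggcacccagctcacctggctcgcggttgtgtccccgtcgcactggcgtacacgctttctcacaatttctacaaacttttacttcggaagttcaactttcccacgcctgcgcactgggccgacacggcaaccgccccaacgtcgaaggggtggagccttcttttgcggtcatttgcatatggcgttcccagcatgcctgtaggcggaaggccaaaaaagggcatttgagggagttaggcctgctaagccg

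The motif marked was GAAA, any 2 bases, and GAAA again, on either strand and with overlaps allowed, a core of the element bound by IRF proteins. Windows were read for 7 of the 10 genes, namely Ddx58, Ifih1, Tlr3, Cgas, Mavs, Tbk1 and Irf3, and 2 of the 7 held a match. Any window of the 10 genes on a further chromosome was left out of this search, though not out of the count over all windows. Whether Sting1, Dhx58 and Zbp1 hold a match is therefore not reported here. In Ddx58 the match lay on the opposite strand to the gene, at bases 3 to 12 of the transcript, and in Ifih1 on the gene's strand, at bases 33 to 42. Of all 32851 promoter windows of the same length, 3.44% held a match to this motif. A second motif, TTC, any 3 bases, and GAA (GAS), was also searched. It was in 0 of the 7 windows and in 8.3% of all windows.

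The knockdown and the sample type were checked first. Ggct had normalised log2 signals of 0.22, 0.91 and 0.70 in knockdown arrays, against 3.32, 3.72 and 3.70 in control arrays (12.7% of control; limma adjusted p = 0.00314). Of 8 glioblastoma stem cell markers, 7 were above background on all 6 arrays, Sox2 and Nes among them, and Olig2 was above background on none. Their summed signal, in units of each array's 75th percentile, was 35.1 to 48.6 in knockdown and 52.6 to 62.4 in control arrays, and none passed the test. Sox2, Nes, Msi1, Cd44 and Egfr were at 64.1% to 83.3% of control and Fabp7 at 105%. Prom1 went the other way, at 2.05-fold (limma adjusted p = 0.105). Of 10 microglia and macrophage markers, which belong to cells rich in these sensors, Cd68, Csf1r and Itgam were above background on all arrays, Tyrobp on 1 knockdown array, and the other 6, Ptprc, Aif1 and C1qa among them, on none. The summed signal of those 10 markers ran from 11.4 to 14.3 in knockdown and from 11.4 to 17.8 in control arrays, and none of them passed the test. Of 4 dendritic cell markers, Itgax and Clec9a were above background on none, Siglech was bright in both groups, and Flt3 was at 46.6% of control in the knockdown (limma adjusted p = 0.0452). The summed signal was 87.1 to 113 in knockdown and 94.6 to 128 in control arrays for that list, 1.73 to 2.07 and 1.76 to 2.13 for 6 T and B cell markers, and 0.182 to 0.226 and 0.166 to 0.242 for 4 endothelial markers. The part of other cells in the results was not tested. The first principal component put knockdown replicate 1 apart, with a score of 46.6, while knockdown replicates 2 and 3 scored 9.13 and 15.4 and the control arrays -30.5 to -15.0, so values without it are given beside the results it changed most.

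Zbp1 and Ddx58 rose in the knockdown, 4.23-fold and 2.39-fold, and the other 8 genes did not pass the test. Across all genes, 7.41% passed, 4.57% higher and 2.84% lower, so 2 rises and 0 falls among 10 genes stand against those shares, and 0 of the 10 were lower in limma at an unadjusted p below 0.05. The median log2 fold change of the 10 was 0.27, beside 0.02 for all genes tested. It was 0.17 without knockdown replicate 1, 0.11 without pair 1 and 0.44 without pair 3. Dhx58, Sting1 and Ifih1 had values above 0 in all 3 pairs and unadjusted limma p-values of 0.0249, 0.0407 and 0.0448, a level that 24.8% of all genes reached, 14.1% on the higher side. Cgas, Irf3, Mavs and Tlr3 had fitted values just below 0. The knockdown arrays lay wholly above the control arrays for 4 of the 10 and wholly below for 1, against 17.8% and 14.6% of all genes, 32.4% together.

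**Figure D1:**
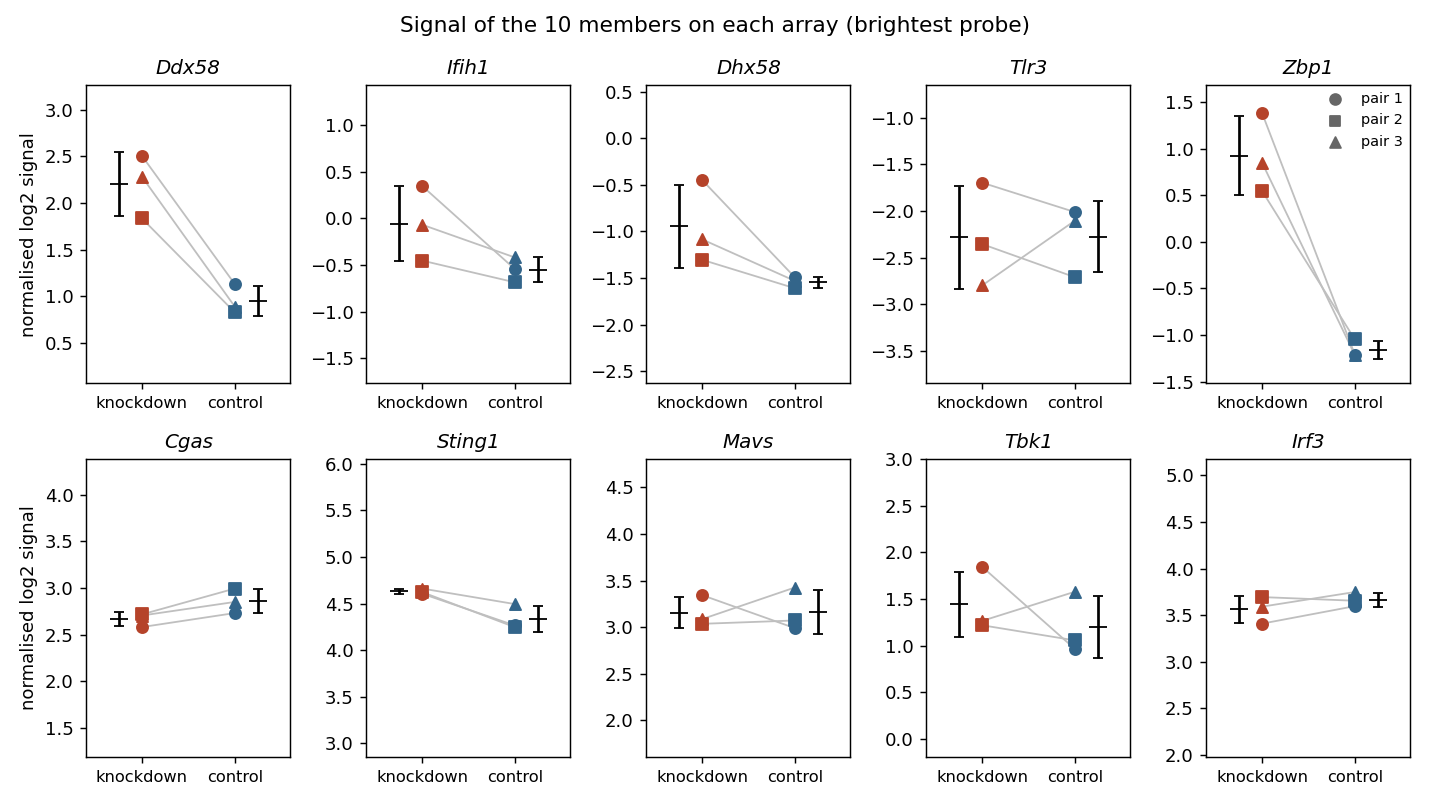
Normalised log2 signal (log2 intensity minus the array's 75th percentile) of the brightest probe of each of the 10 genes on the 3 knockdown arrays (left in each panel) and the 3 control arrays (right). Grey lines join arrays of the same date, black bars give the mean and SD (n = 3), and every panel spans the same number of log2 units; knockdown and control are furthest apart for Zbp1 and Ddx58.

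Ddx58, which detects short double-stranded RNA with a 5′ triphosphate, was measured by 4 probes. Its brightest probe read 2.51, 1.83 and 2.28 normalised log2 units in knockdown arrays 1, 2 and 3, against 1.13, 0.83 and 0.89 in control arrays. Every knockdown array lay above every control array, and knockdown replicate 2 was the lowest of the 3. The log2 fold change was 1.26 ± 0.19 (SE; 95% interval 0.82 to 1.70; limma adjusted p = 0.0149), and the pairs differed by 1.37, 1.01 and 1.39. Without knockdown replicate 1 the fold was 2.16 (limma adjusted p = 0.0174).

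The other Ddx58 probes had similar average differences but another pattern across arrays. Fitted with every kept probe, of which 1.75% passed and 1.16% were higher, the 4 probes had log2 fold changes of 1.26, 0.96, 1.20 and 1.35, in order of brightness. The brightest passed in that limma fit (adjusted p = 0.042) and the others did not (adjusted p = 0.2, 0.0628 and 0.0593). On the probe ranked 2 in brightness, knockdown replicate 1 read -1.08, next to its paired control at -1.14, while the knockdown arrays of pairs 2 and 3 read -0.14 and 0.15, against controls at -1.04 and -1.75. On the probes ranked 3 and 4 the widest gap was in pair 3, at 1.89 and 2.20, against 0.74 to 0.96 in pairs 1 and 2. The dimmest probe was above background on all 3 knockdown arrays and on no control array, so its fold has a lower bound only, at least 2.32-fold higher in the knockdown. The build of the array design differs from that of the gene table, so the part of the transcript that each probe reads was not located.

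Ifih1, the sensor of long double-stranded RNA, had a single probe. It read 0.35, -0.45 and -0.07 in knockdown arrays, against -0.54, -0.69 and -0.42 in control arrays. The groups overlapped, since knockdown replicate 2 lay just below control replicate 3. The log2 fold change was 0.49 ± 0.21 (SE; 95% interval 0.01 to 0.97; limma adjusted p = 0.189), which leaves room for any rise up to 1.96-fold. Of its 3 pair differences, 0.89 in pair 1 was the widest, against 0.23 and 0.35, and without knockdown replicate 1 the log2 fold change was 0.29.

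Dhx58, a helicase without the signalling domain of the other RIG-I-like sensors that modulates them, ordered the knockdown arrays in the same way. It read -0.45, -1.30 and -1.09 in knockdown arrays, against -1.49, -1.61 and -1.53 in control arrays. All knockdown arrays were above all control arrays, and knockdown replicate 1 stood well above the others. The difference of 0.60 ± 0.21 log2 units (SE) corresponds to 1.51-fold, with a 95% interval from 1.07- to 2.14-fold, and did not pass (limma adjusted p = 0.135). Without knockdown replicate 1 it was 1.27-fold.

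Tlr3, the endosomal receptor, did not differ between groups beyond the spread on either of its 2 probes. The brighter read -1.70, -2.35 and -2.80 in knockdown arrays, against -2.01, -2.71 and -2.10 in control arrays. Its pairs disagreed in direction, at 0.32, 0.36 and -0.70, and the fit gave -0.01 ± 0.30 (SE), which did not pass (limma adjusted p = 0.991). Without knockdown replicate 1 it gave -0.30 (limma adjusted p = 0.493). The 95% interval, from -0.71 to 0.69, still allows a fall to 61.3% of control or a rise to 1.61-fold. The dimmer probe had a log2 fold change of -0.51 ± 0.34 (SE; adjusted p = 0.489 in the limma fit over probes), and there it was pair 1 that differed most, at -1.42. At its lowest, the brighter probe stood 2.46 log2 units and the dimmer 1.19 above the lowest signal called above background on that array.

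Zbp1, which binds left-handed Z-RNA and Z-DNA and can start necroptosis through RIPK3 and MLKL, showed the widest difference of the 10 genes. Its brighter probe read 1.38, 0.54 and 0.85 in knockdown arrays, against -1.21, -1.05 and -1.21 in control arrays. The control arrays lay close together (SD 0.10), the knockdown arrays were more spread (SD 0.42), and the lowest knockdown array was far above the highest control array. The log2 fold change was 2.08 ± 0.21 (SE; 95% interval 1.59 to 2.57; limma adjusted p = 0.00768), and Zbp1 ranked 36 among the 646 rises by size. Without knockdown replicate 1 the rise was 3.61-fold (limma adjusted p = 0.00357).

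The other Zbp1 probe, assigned to a different transcript of the gene, gave nearly the same difference. It read -2.37, -3.06 and -2.91 in knockdown arrays, against -4.53, -5.12 and -4.81 in control arrays, and was above background on 3 knockdown arrays and 2 control arrays. Its log2 fold change was 2.04 ± 0.23 (SE; adjusted p = 0.0298 in the limma fit over probes), beside 2.08 for the brighter probe. Of the effectors of necroptosis, Ripk3 was above background on no array, and Mlkl, at 0.23 ± 0.12 log2 units (SE), did not pass (limma adjusted p = 0.266). Both were singled out after their values were seen.

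**Figure D2:**
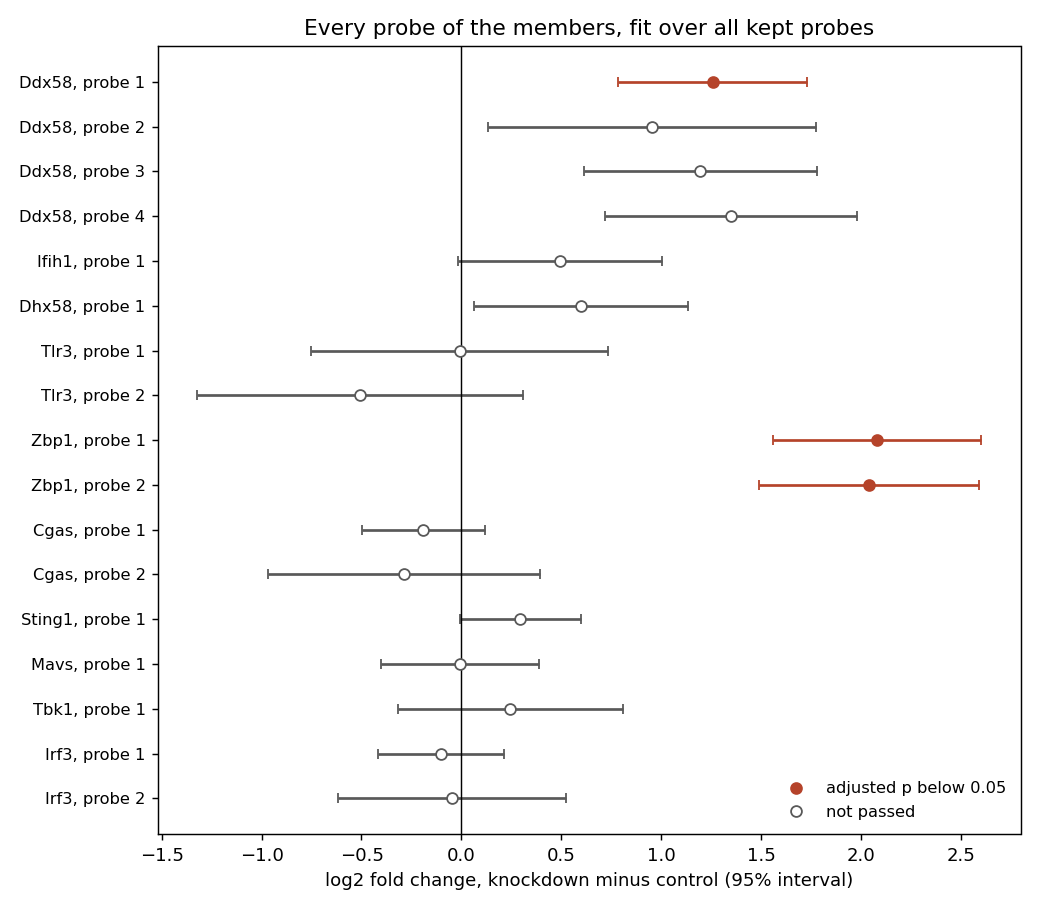
Log2 fold change (knockdown minus control) with its 95% interval for all 17 probes of the 10 genes, from the limma fit over the 31804 kept probes; probes of a gene are numbered from the brightest. Both Zbp1 probes (2.08 and 2.04) and the brightest Ddx58 probe (1.26) passed an adjusted p below 0.05, shown filled; the dimmest Ddx58 probe was kept only through the knockdown arrays.

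Cgas, the DNA sensor, had values slightly lower in the knockdown that did not pass. Its brighter probe read 2.58, 2.72 and 2.71 in knockdown arrays, against 2.73, 2.99 and 2.85 in control arrays. The groups did not overlap, but only just, since knockdown replicate 2 and control replicate 1 nearly met. The difference was -0.19 ± 0.12 (SE; 95% interval -0.47 to 0.09; limma adjusted p = 0.388), so a fall below 72.0% of control lies outside the interval. The dimmer probe, at -0.29 ± 0.29 (SE), had pair differences of both signs.

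Sting1, the adaptor that cGAS activates, was slightly higher on every knockdown array. It read 4.61, 4.62 and 4.66 in knockdown arrays, against 4.27, 4.25 and 4.49 in control arrays. The spread was small in the knockdown (SD 0.03) and the groups did not overlap. The log2 fold change of 0.29 ± 0.12 (SE; 95% interval 0.02 to 0.57) did not pass after adjustment (limma adjusted p = 0.18), and unlike Ifih1 and Dhx58 it was as large without knockdown replicate 1, at 0.31.

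Mavs, the adaptor of RIG-I and MDA5, did not differ beyond the spread. It read 3.34, 3.04 and 3.09 in knockdown arrays, against 2.99, 3.07 and 3.43 in control arrays. The pairs differed in sign, at 0.35, -0.04 and -0.34. The fit gave -0.01 ± 0.16 (SE), and its 95% interval runs from 77.1% of control to 1.28-fold (limma adjusted p = 0.987).

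Tbk1, the kinase on which the pathways meet, also varied as much within groups as between them. It read 1.85, 1.22 and 1.26 in knockdown arrays, against 0.96, 1.06 and 1.58 in control arrays. Knockdown replicate 1 was the highest array and control replicate 3 the next, and the log2 fold change was 0.24 ± 0.23 (SE; 95% interval -0.28 to 0.77; limma adjusted p = 0.565). Without knockdown replicate 1 it was 0.04.

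Irf3, the factor that TBK1 phosphorylates, was bright and nearly level. It read 3.41, 3.69 and 3.59 in knockdown arrays, against 3.60, 3.66 and 3.75 in control arrays. The groups overlapped, and the difference was -0.10 ± 0.12 log2 units (SE), which did not pass (limma adjusted p = 0.674). Its 95% interval, -0.39 to 0.19, allows a fall to 76.2% of control or a rise to 1.14-fold. The dimmer Irf3 probe gave -0.05 ± 0.24 (SE).

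**Figure D3:**
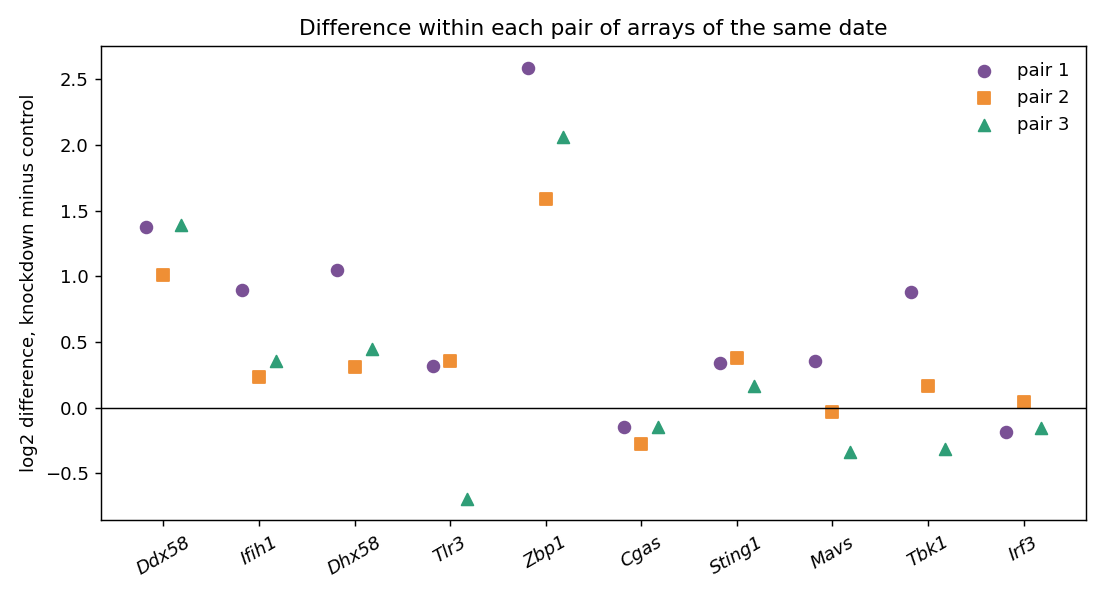
Difference in normalised log2 signal, knockdown minus control, within each of the 3 pairs of arrays that share a date, for the brightest probe of each gene. Ddx58, Ifih1, Dhx58, Zbp1 and Sting1 lie above 0 in all 3 pairs and Cgas below 0 in all 3, while Tlr3, Mavs, Tbk1 and Irf3 have pairs on both sides.

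In the pairs, 5 of the 10 genes were higher in the knockdown in all 3 and 1 was lower in all 3, where 26.3% and 22.4% of all genes were. Pair 1, which holds knockdown replicate 1, had the highest difference of the 3 pairs for Zbp1, Ifih1, Dhx58, Mavs and Tbk1. The calls for Zbp1 and Ddx58 passed with the pair as a replicate block (limma adjusted p = 0.0232 and 0.027), a fit in which 3.94% of all genes passed, 2.78% on the higher side. Both calls depended on single arrays. Ddx58 did not pass without control replicate 1 (limma adjusted p = 0.0608), control replicate 2 (0.068) or knockdown replicate 3 (0.0648), and Zbp1 not without control replicate 1 (0.0582) or knockdown replicate 3 (0.0516), while their folds stayed within 2.16 to 2.72 and 3.61 to 4.83 when each array was left out. In those fits only 14, 42 and 21 of all genes passed without control replicate 1, control replicate 2 and knockdown replicate 3.

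Genes around the sensors were described from 6 lists of 106 genes by role, of which 90 were tested, 13 were above background on too few arrays and 3 had no named probe. 16 were called higher and 1 lower, where 4.57% and 2.84% of all genes were. The 16 include Ddx60, which entered the test only through the knockdown arrays. They also include early IRF3 target genes whose rise was known when that list was made. The count therefore describes the lists and is no test of them. Without knockdown replicate 1, 12 list genes passed beside 840 of all 14151 genes. Without control replicates 1, 2 and 3 and knockdown replicate 3, 2, 3, 7 and 2 list genes passed, beside 14, 42, 424 and 21 of all genes. Among the 22 tested genes for other nucleic acid sensors and effector enzymes, 4 were called higher in limma, 0 lower (1 was lower at an unadjusted p below 0.05) and the median was 0.02. Ddx60, a helicase linked to RIG-I signalling and 1 of the 4, was above background on the 3 knockdown arrays and no control array. It entered the test only through the group where it was high, so its call supports nothing, and its signals give no more than a bound of at least 1.11-fold higher in the knockdown. With normexp background correction its log2 fold change was 0.17 (limma adjusted p = 0.621), against a fitted 2.11. Without a filter on dim probes, another Ddx60 probe, brighter on average but above background on 1 array only, stood for the gene. That probe had a log2 fold change of 2.17 and did not pass (limma adjusted p = 0.0516). Mndal, a member of the interferon-inducible family of DNA-binding proteins, rose 2.59-fold, and Oasl1, an inhibitor of Irf7 translation, rose 1.87-fold (limma adjusted p = 0.0372 and 0.0381). Under 18 alternative settings, each of these calls was kept in 8 and lost in 10. Mndal did not pass with quantile normalization (limma adjusted p = 0.0546), and with normexp its log2 fold change was 0.97, against 1.37. Oasl1 did not pass without knockdown replicate 1 (limma adjusted p = 0.0641). In the limma fit over probes, neither of its probes passed (adjusted p = 0.079 and 0.0985). Mndal and Oasl1 belong to families with close paralogs that can cross-hybridise. Oas1a, Oas1g, Oas2 and Oas3, interferon-induced genes of the same family as Oasl1 that were singled out after their values were seen, were above background on no array. Oas1c, singled out in the same way, was above background on 3 knockdown arrays and 1 control array. It was higher in all 3 pairs and did not pass (limma adjusted p = 0.157).

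The adaptors and kinases downstream of the sensors held no call. Of 18 tested, 0 rose and 0 fell in limma, while 2 were higher and 3 lower at an unadjusted p below 0.05, a level that 24.8% of all genes reached. 3 had all knockdown arrays above and 3 all below the controls, beside 17.8% and 14.6% of all genes, and the median was 0.04. Ticam1, which encodes TRIF, the adaptor of TLR3, was at 0.12 ± 0.15 (SE), and Ikbke, the relative of Tbk1, at -0.41 ± 0.27 (SE). Ticam2 and Ripk3 were too dim to be tested.

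Among 9 tested transcription factors of the pathway, 2 rose. Irf7, the interferon-induced relative of Irf3, read -0.19, -0.83 and -0.58 in knockdown arrays, against -1.39, -1.54 and -1.78 in control arrays. The groups did not overlap and the rise was 2.05-fold (limma adjusted p = 0.0244), with a dimmer probe at a log2 fold change of 0.78. In the limma fit over probes, neither the brighter nor the dimmer Irf7 probe passed (adjusted p = 0.0565 and 0.126). Irf1, another interferon-induced factor, rose 1.83-fold (limma adjusted p = 0.0171). Stat2 and Irf9, which act together in the response to interferon, did not pass, with log2 fold changes of -0.02 ± 0.19 and 0.47 ± 0.16 (SE). Both were singled out after their values were seen.

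Of 11 tested positive modifiers, 1 rose, Unc93b1, which escorts TLR3 and other endosomal receptors to their compartment. It was 1.93-fold higher (limma adjusted p = 0.0247), a call lost in limma with the replicate block (adjusted p = 0.0581). Trim25, a ubiquitin ligase that activates RIG-I, was at 0.33 ± 0.16 (SE; limma adjusted p = 0.24). Of 19 tested inhibitors and nucleases, 3 rose and 1 fell. Usp18, which trims ISG15 from proteins and damps interferon receptor signalling, rose 2.56-fold, Rnf5, a ubiquitin ligase of STING, rose 1.54-fold and Atg12, whose conjugate with ATG5 dampens RIG-I signalling, rose 1.49-fold. Rnf125, a ubiquitin ligase that marks RIG-I, MDA5 and MAVS for degradation, fell to 69.1% of control. With the replicate block in limma, none of these 4 passed (adjusted p = 0.0538 to 0.0923), and without knockdown replicate 1 Rnf5, Atg12 and Rnf125 did not (adjusted p = 0.0556, 0.0699 and 0.0588). Usp18 was above background on 3 knockdown and 2 control arrays, and its log2 fold change was 0.47 with normexp (limma adjusted p = 0.0649), against 1.36, and lost its call with quantile normalization (0.0519). The nuclease Trex1 was at 0.32 ± 0.15 and the RNA-editing enzyme Adar at -0.26 ± 0.15 (SE), and neither passed.

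The interferon genes and early IRF3 targets had the highest median of the 6 lists, 0.57, with 6 of 11 tested genes higher in limma and 0 lower, also at an unadjusted p below 0.05. All 6 were target genes, and 1 of them, Ccl5, named after its values were seen, did not pass without knockdown replicate 1 (limma adjusted p = 0.0698). Not every target gene rose. Ifit2, also named after its values were seen, was at 0.19 ± 0.25 (SE) with overlapping groups and did not pass (limma adjusted p = 0.698). Ifit1, an effector that binds foreign RNA ends, read 1.45, 0.62 and 1.21 in knockdown arrays, against -0.60, -0.66 and -0.15 in control arrays, and rose 2.94-fold. Ifit3 rose 2.92-fold, the ubiquitin-like gene Isg15 2.30-fold, the chemokine gene Cxcl10 2.20-fold and the exonuclease gene Isg20 1.79-fold (limma adjusted p = 0.00768 to 0.027 over these 5). These genes are also interferon targets, so the list does not separate the steps, and their rise was known when the list was made.

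The interferon genes themselves did not rise past the test. Ifnb1, the main product of the TBK1 and IRF3 axis, was not well above background on any of the 6 arrays. Ifna4 and Ifnk were above background on none, and Ifna1, Ifna2, Ifna5 and Ifnl3 were above it on all 6 at low signals. Ifna1 read -3.44, -3.73 and -3.86 in knockdown arrays, against -3.76, -3.93 and -3.87 in control arrays, a difference of 0.18 ± 0.14 (SE) that did not pass (limma adjusted p = 0.497). Ifna2 and Ifna5 were at -0.005 ± 0.17 and 0.18 ± 0.19 (SE). The alpha interferon genes are close copies of each other, so a probe of 1 can read others.

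**Figure D4:**
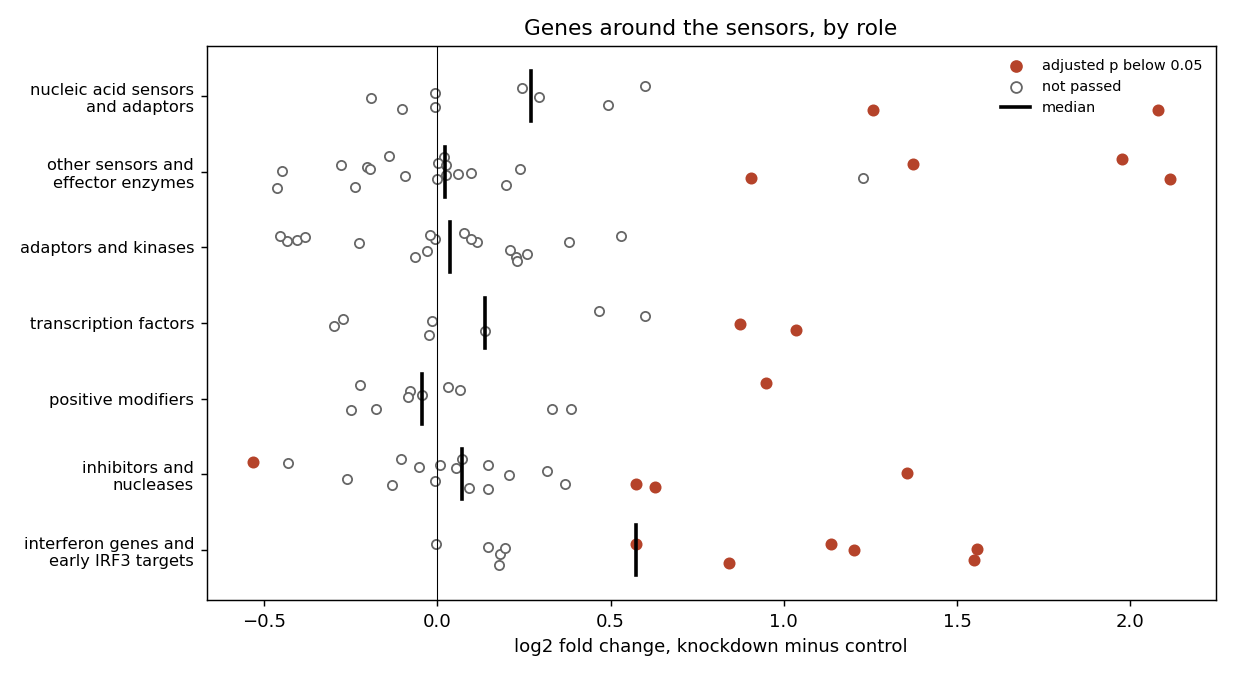
Log2 fold change (knockdown minus control) of every tested gene in the set of nucleic acid sensors and adaptors and in 6 lists of genes around them, each circle a gene, with the median of each list as a bar; filled circles passed a limma adjusted p below 0.05. Filled circles lie to the right of 0 in all rows except adaptors and kinases, which has none, and the inhibitors, where Rnf125 also lies to the left; Ddx60 is drawn at its fitted value, 2.11, though only its lower bound of 1.11-fold is measured.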

How the data were processed

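6 one-colour Agilent arrays (Cy3) were read. Spot intensity values had been background-corrected by the authors' scanner software, Agilent Feature Extraction 11.0.1.1, per the file headers. The deposited value table holds log2 values; every probe differed from log2 of the scanner signal by 1 constant per column within 0.01, with each column's 75th percentile at about 0 and medians of -4.46 to -4.21, and it served as an alternative. Outlier spots were left out, and log2 intensities were averaged per probe. The array's 75th percentile was subtracted. Probes well above background on at least 3 arrays were kept, 31804 in all, and arrays had 54.5% to 56.8% of probes above background and 0 saturated spots. There were 3 arrays per group, and the number of arrays limits the precision of an array comparison. Probe accessions, versions removed, were looked up in a RefSeq table of GRCm38.p6, which named 32986 probes (58.3%) and was used for names and promoter windows only. The brightest probe stood for each of 14151 genes.

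Groups were compared with limma 3.58.1 in R 4.3.3 (lmFit and eBayes, two-sided, Benjamini-Hochberg over all genes, threshold 0.05, no block). Python 3.11.15 and pandas 2.3.3 read the files, and the fit was tested on simulated data. Deviations of paired arrays from their group means correlated at -0.02, 0.55 and -0.20, and the pairing comes from the dates in the titles. All 6 arrays lay on 1 slide with 1 scan time, per the file headers. The genes and lists were chosen with earlier results of these data known. Named are all 10 genes with every probe, Ggct, up to 5 called genes per list by size, and Ifnb1, the Ifna genes, Irf7, Ticam1, Trim25, Ikbke, Adar and Trex1; some genes that this rule names are not reported here. The normexp alternative used median instead of mean spot signals, since the arrays' tables give only the median.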

Additional observations from a re-analysis of the deposited data

How the results depend on the processing

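Each count was recomputed under 18 alternatives. Over all genes, 357 passed without a filter on dim probes, 556 with every kept probe tested, 558 with the replicate block, 14 to 840 when single arrays were left out, and 343, 81 and 0 without pairs 1, 2 and 3. Of the 10 sensor and adaptor genes, 0 to 2 passed when single arrays were left out, and 1 without pair 2 and 0 without pair 3, against 2 otherwise. With every kept probe and the replicate block together, chosen after seeing the data, 0 passed, with limma adjusted p-values of 0.0997 for Zbp1 and 0.107 for Ddx58. Of the surrounding lists, 6 passed without a filter, 7 with every kept probe, 11 with the replicate block, 2 to 13 without single arrays, and 5, 5 and 0 without pairs 1, 2 and 3, against 17. Fewer arrays or more tests are part of these settings, and the cause was not tested further. The median log2 fold change of the 10 genes ran from 0.11 without pair 1 to 0.44 without pair 3 over the 18. The SD of the pair medians, 0.30, exceeded the main value of 0.27, so it could not judge stability. Uncalled genes near 0 changed sign. Tlr3 was 0.0115 with the percentile over probes detected on every array, 0.34 without pair 3 and -0.30 to 0.25 without single arrays. Mavs was 0.0055 with normexp, 0.0191 with quantile normalization, 0.0126 with that percentile, 0.0075 and 0.16 without pairs 2 and 3, and -0.10 to 0.12 without single arrays. Tbk1 was -0.0753 without pair 1. The replicate block changed no call among the 10 genes. Dim probes, such as those of Tlr3, limit what a small change can show.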
